A study of Mus musculus with 18 samples.

Results

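Ribosomal protein genes were compared between Cav1 knockout (KO) and wild-type (WT) mice in fibroblasts, liver and adipose tissue. They were taken as the probes whose name carries the NCBI gene ID of a symbol starting Rpl or Rps followed by a digit or a, or starting Mrpl or Mrps followed by a digit, without the Rps6k kinases. This gave 121 of 45992 probes on the array, for 107 of the 8109 genes named in this way. Of these, 72 genes (81 probes) were classed by their symbol as cytosolic, 40 as large and 32 as small subunit. Among these 72 are the pseudogene Rps4l and relatives of ribosomal protein genes such as Rpl7l1. The other 35 genes (40 probes) were classed as mitochondrial, 19 as large and 16 as small subunit. RefSeq lists 88 protein-coding cytosolic and 78 protein-coding mitochondrial genes under the same symbol rule, counts that leave out pseudogenes.

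The cytosolic ribosome translates the messages of nuclear genes. Its proteins are needed in matched amounts, and many of their messages start with a run of pyrimidines, the terminal oligopyrimidine (TOP) tract, through which the kinase mTOR sets their translation. The mitochondrial ribosome is a separate machine whose proteins are all encoded in the nucleus and imported. It makes only the few respiratory chain and ATP synthase subunits that mitochondrial DNA encodes.

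The study measured total RNA on 18 Illumina Mouse-6 V1 arrays, 3 for each genotype and tissue. Cav1 encodes caveolin-1, a coat protein of caveolae in the plasma membrane. Cav1 KO and WT embryonic fibroblasts (MEFs) were primary lines harvested 24 hours after they were plated. Livers of Cav1 KO and WT mice were taken 24 hours, and adipose tissue of Cav1 KO and WT mice 11 hours, after food was withdrawn, so all tissue donors of both genotypes had fasted. The labels name no strain, sex, age or fat depot. Nor do they say if each array had its own animal or culture. The p-values therefore rest on array-to-array spread alone, part of which may be technical.

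Between 26.3% and 37.0% of probes were detected per array. The raw Cav1 signal was 788.7, 1163.1 and 1689.9 in KO MEFs against 10792.2, 9765.6 and 10821.2 in WT MEFs. In adipose tissue it was 1939.9, 3167.4 and 2296.9 in KO against 25664.1, 50304.0 and 40700.4 in WT, and liver held little Cav1 signal in either genotype. MEFs shared a slide, as did all liver arrays but WT replicate 1. On both slides KO arrays lay at positions D to F and WT arrays within A to C, so position and genotype cannot be told apart there. As checks of the labelled tissues, summed hepatocyte markers were bright in liver, at raw signals of 145576 to 157086 in KO and 146392 to 173621 in WT livers, against at most 3056 in adipose tissue and 698.4 in MEFs. The adipocyte and fibroblast lists did not mark their tissues as cleanly. Adipocyte sums were 3938 to 5519 in KO livers, overlapping KO adipose tissue (5451 to 11561), and 4395 to 7365 in WT livers. Fibroblast sums were higher in adipose tissue (36425 to 89621 in KO, 18179 to 48525 in WT) than in MEFs (7214 to 9999 and 10154 to 14582).

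Levels below are raw bead signals or log2 signals after background correction and quantile normalization of the 6 arrays of a tissue, and a difference is KO minus WT on that log2 scale. A probe was tested where its detection p was under 0.05 on at least 3 of 6 arrays, and was called where limma's adjusted p, over all tested probes of the tissue, was under 0.05. Where a gene had several tested probes the brightest was used. This left 69 cytosolic and 33 mitochondrial genes in MEFs, 67 and 33 in liver, and 68 and 33 in adipose tissue. The probes of Rpl18, Rps18, Rpsa, Mrpl32 and Mrps36 passed in no tissue, those of Rps15a and Rps19 did not pass in liver, and that of Rpl4 did not pass in adipose tissue. Their raw signals lay between 72.8 and 239.4, which bears on these probes only and does not show that the genes are silent. In tissue, fewer cells of a type and less RNA per cell cannot be told apart.

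Most mitochondrial ribosomal protein genes read lower in KO than in WT liver and adipose tissue, each by a small amount. In liver the difference was below 0 for 30 of 33 genes, among them all 15 tested genes of the small subunit, and the median difference was -0.20. Over all 12574 probes tested in liver 52.0% were below 0 and the median was -0.005. In adipose tissue 25 of 33 were below 0 with a median of -0.21, against 52.1% of all 15968 tested probes and a median of -0.004. In MEFs 25 of 33 were below 0 with a median of -0.08, against 50.4% of all 14050 tested probes and a median of -0.001. Of the 33 genes, 17 were below 0 in all 3 tissues and 0 were above 0 in all 3. The matching shares of all probes over 3 tissues were not counted. In single tissues 49.6%, 48.0% and 47.9% of all probes were above 0 in MEFs, liver and adipose tissue. The joint counts can follow from the single-tissue counts of 25, 30 and 25 of 33, and show no agreement beyond them.

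The cytosolic genes lay nearer 0, and their direction depended on the scaling. Their median difference was -0.02 for MEFs, -0.04 for liver and 0.05 for adipose tissue, and 65 of 69, 58 of 67 and 62 of 68 genes lay within 0.25 of 0. In MEFs 41 of 69, in liver 38 of 67 and in adipose tissue 22 of 68 were below 0, against 50.4%, 52.0% and 52.1% of all probes. When arrays were centred on their medians in place of quantile normalization, 57 of 69, 52 of 67 and 40 of 68 were below 0, with medians of -0.079, -0.082 and -0.015. The mitochondrial medians were then -0.13, -0.15 and -0.25. Single arrays also moved the cytosolic counts. They were 51 of 69 in MEFs without WT replicate 2, 25 of 67 in liver without KO replicate 3 (median 0.04), and in adipose tissue 39 of 68 without KO replicate 2 (median -0.01), 13 without KO replicate 5 (median 0.11) and 14 without WT replicate 2 (median 0.10). Of 66 cytosolic genes tested everywhere, 9 were below 0 in all tissues, 13 were above 0 in all, and 44 were mixed.

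**Figure D1:**
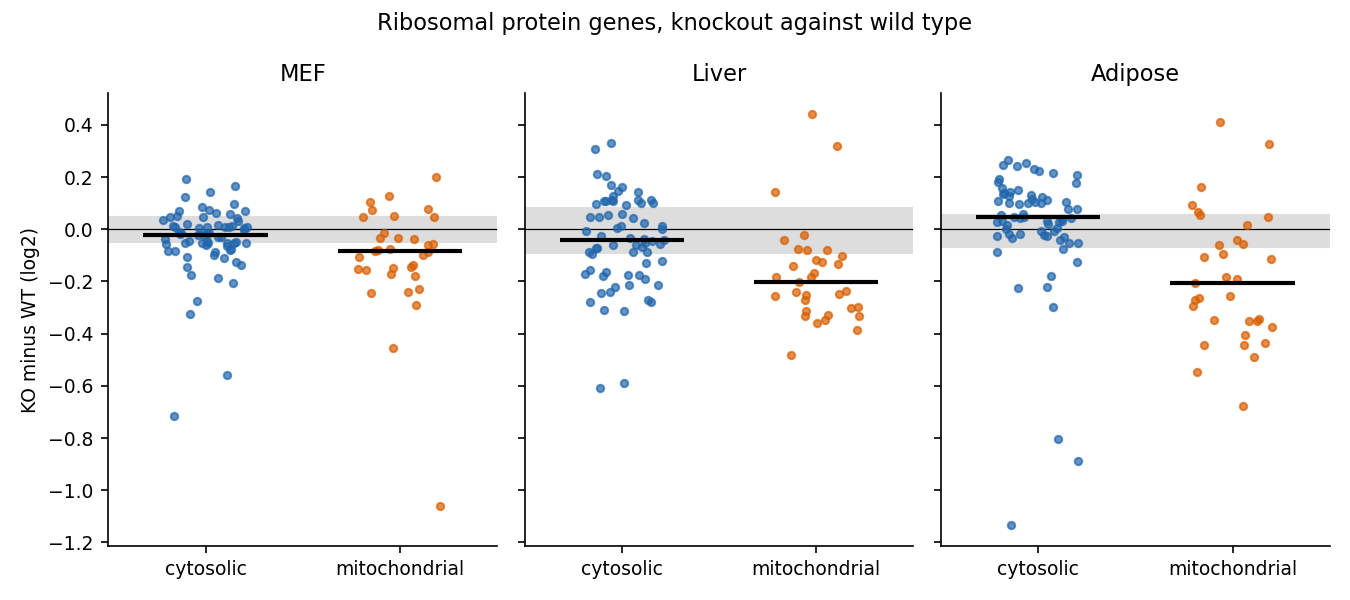
Each point is a gene's KO minus WT difference (log2, vertical axis), by class and tissue. Black bars are class medians, and the grey band runs from the lower to the upper quartile of all tested probes of the tissue. The mitochondrial medians (-0.08, -0.20 and -0.21 in MEFs, liver and adipose tissue) lie below the band and the cytosolic medians (-0.02, -0.04 and 0.05) lie within it.

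The shift was also read array by array, as the median over the genes of a class of each gene's deviation from its own mean over the 6 arrays of the tissue. For the mitochondrial class these medians were -0.04, -0.21 and -0.09 on the KO liver arrays and 0.12, 0.04 and 0.11 on the WT liver arrays. In adipose tissue they were -0.20, -0.06 and -0.001 on KO and 0.20, 0.05 and 0.08 on WT arrays. All KO arrays were below all WT arrays in both tissues. In MEFs they were -0.04, 0.05 and -0.09 on KO against 0.09, -0.01 and -0.005 on WT arrays, and the genotypes overlapped. The cytosolic class overlapped in every tissue. Its widest range was in adipose tissue, with 0.16, -0.01 and -0.07 on KO and -0.11, 0.07 and -0.02 on WT arrays. With single arrays left out, the mitochondrial median difference in adipose tissue ranged from -0.26 to -0.14, the value nearest 0 being the one without KO replicate 2, and that in liver ranged from -0.23 to -0.16. Without WT liver replicate 1, on the other slide, 29 of 33 genes were below 0 with a median of -0.20, and with the slide as a block 29 were, with a median of -0.19.

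**Figure D2:**
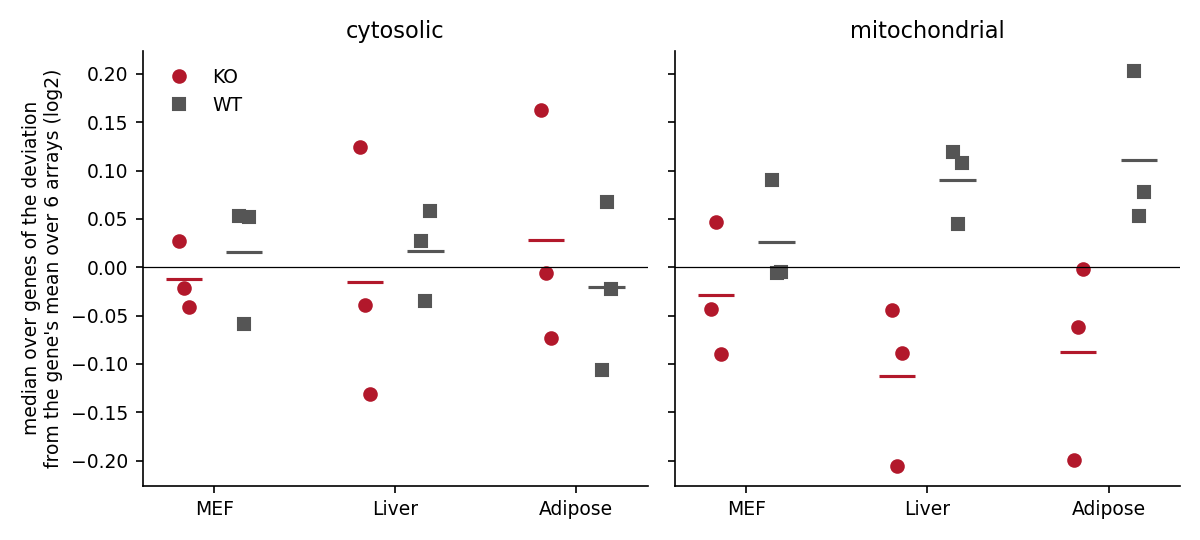
Each point is an array's median deviation (log2, vertical axis) over the genes of a class, for KO (circles) and WT (squares), and bars are group means. Mitochondrial KO points lie below all WT points in liver (-0.21 to -0.04 against 0.04 to 0.12) and adipose tissue, while cytosolic points overlap.

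In liver 3 of 33 mitochondrial genes were called, 2 lower and 1 higher, against 4.69% of all probes (2.73% lower and 1.96% higher), and 14 were at an unadjusted p under 0.05, against 22.2% of all probes. The KO and WT arrays did not overlap for 16 of the 33, 13 lower and 3 higher in KO, against 27.9% of all probes (14.8% lower and 13.1% higher). Mrpl17, a large-subunit protein with a bacterial counterpart, had raw signals of 4100.4, 4311.0 and 3712.4 in KO and 4803.3, 5377.8 and 6340.9 in WT livers. The groups did not overlap, and Mrpl17 fell by 0.48 ± 0.08 (log2, SE, n = 3 per group), a 1.40-fold lower level, with limma's adjusted p = 0.0318. Mrps33, a small-subunit protein on chromosome 6, which also carries Cav1, had 994.5, 992.1 and 977.0 in KO and 1252.8, 1074.5 and 1203.6 in WT livers. It fell by 0.38 ± 0.07 with limma's adjusted p = 0.0453, and its 3 KO arrays lay within a narrow range below every WT array. The Mrpl17 call did not pass without KO replicate 2 or 3 or WT replicate 2 or 3 (limma's adjusted p of 0.0862 to 0.107). The Mrps33 call did not pass without KO replicate 1, 2 or 3 or WT replicate 2 or 3 (limma's adjusted p of 0.0594 to 0.138).

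Other liver genes with groups apart missed the threshold. Mrpl1, whose product sits at the stalk where tRNAs leave the ribosome, differed by -0.36 ± 0.10 (limma's adjusted p = 0.104), with 482.0, 520.6 and 541.5 in KO against 604.1, 511.9 and 592.2 raw units in WT livers. The raw signals overlapped and the normalized ones did not. Mrpl42 differed by -0.33 ± 0.09 (limma's adjusted p = 0.109). On the other side, Mrpl23 differed by 0.32 ± 0.11 and Mrpl12, a protein of the factor-binding stalk, by 0.14 ± 0.07, with limma's adjusted p of 0.165 and 0.280. Mrpl23 was 0.20 without WT replicate 1 or with the slide as a block, and Mrpl12 was 0.084 without WT replicate 2. Mrpl1 was -0.21 with median centring.

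Mrpl33, a short protein of the large subunit, was the only mitochondrial gene called higher in KO liver, and its difference had the other sign in fibroblasts. Its raw signals were 1790.4, 2166.6 and 2058.0 in KO against 1452.3, 1354.5 and 1605.3 in WT livers. They were 9064.6, 8869.4 and 6360.7 in KO against 4857.8, 6974.3 and 6268.9 in WT adipose tissue, and 1794.1, 2265.4 and 2292.5 in KO against 3014.5, 2885.6 and 3135.6 in WT MEFs. After normalization the groups did not overlap in any tissue, and the share of all probes apart in all 3 was not counted. Mrpl33 rose by 0.44 ± 0.08 in KO liver with limma's adjusted p = 0.0479, and did not pass without KO replicate 2 or 3 or WT replicate 1, 2 or 3 (0.108 to 0.135), nor with the slide as a block (0.108). The difference was 0.41 ± 0.07 in adipose tissue (limma's adjusted p = 0.101) and -0.46 ± 0.05 in MEFs (limma's adjusted p = 0.0521), neither past the threshold.

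The difference of the Mrpl33 effect between tissues was tested in a limma fit over all 18 arrays. The effect in liver minus that in MEFs was 0.89 ± 0.10, with limma's adjusted p = 0.000333, where 3.73% of 10388 probes passed. The effect in adipose tissue minus that in MEFs was 0.93 ± 0.10, with limma's adjusted p = 0.00024, where 2.98% of 11965 probes passed. Both passed under all 23 alternatives run, with adjusted p-values of at most 0.0137 and 0.0126. No other member passed in these 2 comparisons. Between liver and adipose tissue, where 4.73% of 10950 probes passed, 1 mitochondrial and 1 cytosolic gene did. Mrpl1 had an effect of -0.34 in liver and 0.33 in adipose tissue in that fit, a difference of -0.67 ± 0.17 with limma's adjusted p = 0.0380. A second Mrpl1 probe gave a difference of -0.13 ± 0.18 (limma's adjusted p = 0.796), so this call rests on 1 of 2 probes. Rpl34, a large-subunit protein of the cytosolic ribosome, had -0.26 in liver and 0.26 in adipose tissue, a difference of -0.52 ± 0.13 with limma's adjusted p = 0.0287. Mrpl1 did not pass in 10 of 18 limma fits that left out 1 array (adjusted p-values of 0.0518 to 0.0859), those without MEF KO replicate 1 or 2, MEF WT replicate 3, liver KO replicate 1 or 2, liver WT replicate 1 or 3, adipose KO replicate 2, or adipose WT replicate 2 or 4. Rpl34 did not pass in 8 (0.0539 to 0.0782), those without liver KO replicate 2 or 3, liver WT replicate 1 or 3, adipose KO replicate 2 or 3, or adipose WT replicate 1 or 2. Both calls also ended in 4 of 5 processing alternatives.

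**Figure D3:**
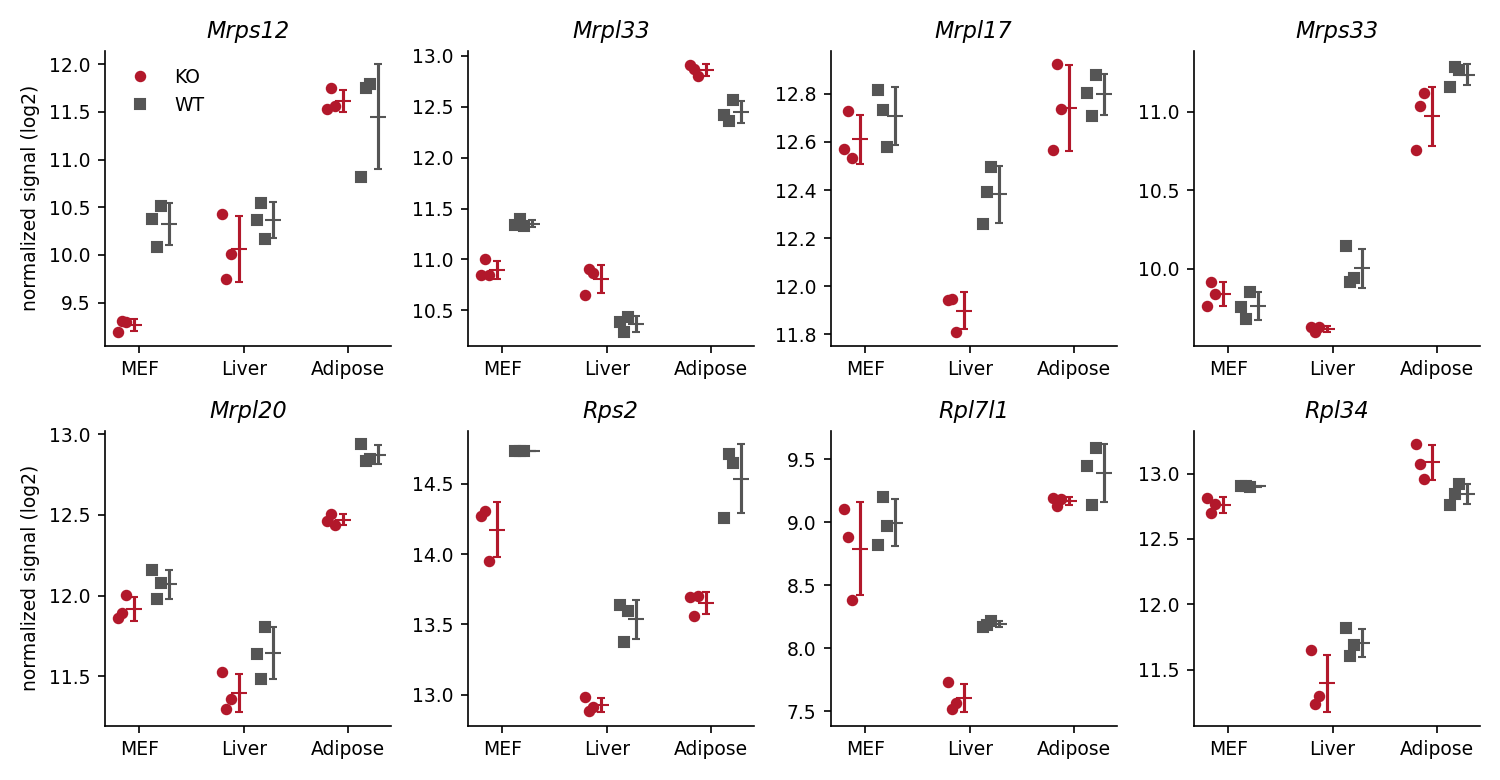
Normalized log2 signal (vertical axis) of 8 genes on each KO (circles) and WT (squares) array, with the mean and SD of 3 arrays beside the points. Each tissue was normalized on its own, so heights are to be read within a tissue. Mrpl33 is lower in KO in MEFs (-0.46) and higher in KO in liver (0.44) and adipose tissue (0.41), and Rps2 is lower in KO in all 3 tissues.

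In adipose tissue 1 of 33 mitochondrial genes was called, and lower, against 0.407% of all probes (0.182% lower and 0.225% higher), and 12 had groups apart, 11 lower and 1 higher in KO, against 19.6% of all probes (10.8% lower and 8.8% higher). Mrpl20, a large-subunit protein, had normalized log2 signals of 12.46, 12.51 and 12.44 in KO and 12.94, 12.83 and 12.85 in WT adipose tissue. It fell by 0.40 ± 0.04 with limma's adjusted p = 0.0410, a 1.32-fold lower level. The call did not pass when any 1 of the 6 arrays was left out (limma's adjusted p of 0.0742 to 0.140). Its raw signals, 6849.3, 7001.6 and 4967.2 in KO against 6891.1, 9506.0 and 7543.6 in WT, overlapped before normalization. The largest difference among genes with groups apart was that of Mrpl30, at -0.68 ± 0.19 (limma's adjusted p = 0.255), with log2 signals of 10.88, 11.40 and 11.41 in KO and 12.14, 11.89 and 11.68 in WT. Mrpl22, at the tunnel through which the new chain leaves, differed by -0.44 ± 0.17 and Mrps18b by -0.43 ± 0.15, neither past the threshold. Mrpl12 differed by -0.34 with groups apart, opposite in sign to liver.

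Cell type markers were summed in each group beside these results. In adipose tissue the macrophage list summed to 8828 to 24078 raw units in KO and 4980 to 15154 in WT, with all 5 tested genes above 0 and a median difference of 0.67. The fibroblast list summed to 36425 to 89621 in KO and 18179 to 48525 in WT, with 3 of 4 tested genes above 0, and the adipocyte list, 2 genes, to 5451 to 11561 in KO and 9444 to 24244 in WT. These 3 sums overlapped between genotypes and none of the 11 genes was called. The hepatocyte list did not overlap there, at 1848 to 3056 in KO and 1167 to 1325 in WT, with 3 of 3 tested genes above 0, a median of 0.46 and 0 called, and no brown adipocyte marker had a probe. In liver the 2 erythroid genes summed to 4310 to 16084 in KO and 20241 to 34416 in WT, with a median difference of -1.80 and 0 called. Of 5 hepatocyte genes in liver 3 had groups apart and lower in KO, against 14.8% of all probes. Their differences ran from -0.46 to 0.34, with a median of -0.19 and 0 called. The liver fibroblast list summed to 5752 to 9162 in KO and 4081 to 5640 in WT, without overlap. Of its 2 tested genes, however, 0 had groups apart after normalization and 0 were called. In MEFs the fibroblast list summed to 7214 to 9999 in KO and 10154 to 14582 in WT. Of its 4 tested genes 2 were above 0, the highest at 0.30, and the median difference was -0.11. The 1 gene called was Col1a2, at -3.06 ± 0.24 (limma's adjusted p = 0.0182, 0.0921 with the replicate block, and 0.0559 to 0.104 without KO replicate 1 or 3 or WT replicate 2 or 3). The part of these cell types in the values of the ribosomal classes was not tested.

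In MEFs 1 of 33 mitochondrial genes was called, and lower, against 0.448% of all probes (0.313% lower and 0.135% higher). Groups were apart for 5, all lower in KO, against 16.9% of all probes (8.33% lower and 8.54% higher). Mrps12, which lies at the decoding site of the small subunit, had raw signals of 752.5, 888.2 and 989.6 in KO and 1688.5, 1315.1 and 1916.7 in WT MEFs. Every KO array was below every WT array. Mrps12 fell by 1.06 ± 0.12, a 2.08-fold lower level and the largest difference of any mitochondrial member in any tissue, with limma's adjusted p = 0.0380. With the replicate number as a block its adjusted p was 0.151, and the count of probes called in MEFs was 9 in place of 63. The call also did not pass without KO replicate 1, 2 or 3 or WT replicate 1 or 3 (limma's adjusted p of 0.0938 to 0.158). In liver Mrps12 differed by -0.30 ± 0.19 and in adipose tissue by 0.16 ± 0.28, with overlapping groups. The effect in adipose tissue minus that in MEFs was 1.20 ± 0.32 with limma's adjusted p = 0.0620, above the threshold. Mrps17 (-0.29 ± 0.10) and Mrps5 (-0.24 ± 0.11) had groups apart and did not pass, and Mrps5 was -0.12 without KO replicate 3.

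**Figure D4:**
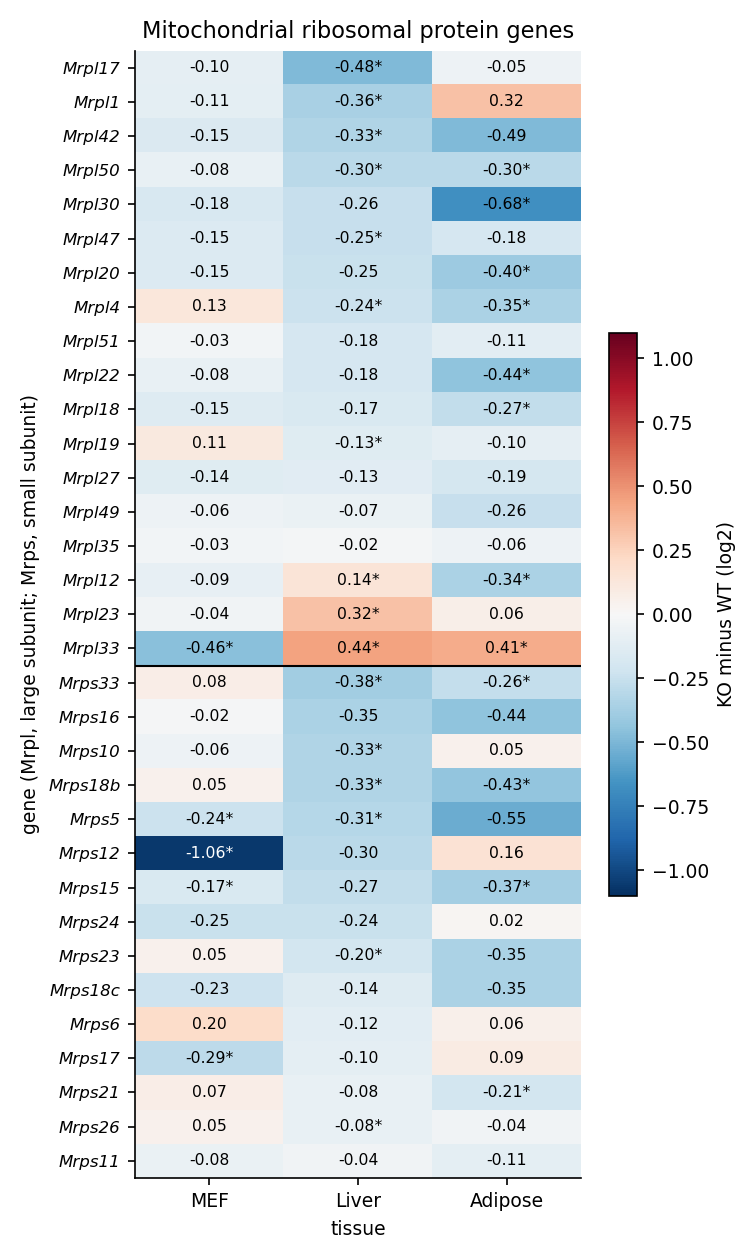
KO minus WT difference (log2, colour and printed value) of the 33 tested mitochondrial genes in each tissue, large subunit above the line and small subunit under it, each ordered by the liver value. An asterisk marks KO and WT arrays that did not overlap. The liver column is negative for all but Mrpl12, Mrpl23 and Mrpl33, and Mrps12 in MEFs (-1.06) is the darkest cell.

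Liver and adipose tissue share no samples, and their mitochondrial differences were set side by side. Of 33 genes, 24 (72.7%) were lower in KO in both and 2 (6.06%) higher in both, against 31.9% and 25.4% of 10950 probes tested in both. With 30 of the 33 below 0 in liver and 25 in adipose tissue, these joint counts largely follow from the single-tissue counts. They are no separate sign that the same genes changed in both. Across these genes Pearson's r was 0.38 and Spearman's rho 0.32, against 0.27 and 0.22 over all probes, and the points share their arrays. For the mitochondrial genes r was -0.04 between liver and MEFs and -0.275 between adipose tissue and MEFs (rho 0.10 and -0.03). The cytosolic genes had an r of 0.366 between liver and adipose tissue (rho 0.10). Theirs was 0.385 between liver and MEFs and 0.599 between adipose tissue and MEFs (rho 0.22 and 0.115). Groups were apart and lower in both tissues for Mrpl4, Mrpl50, Mrps18b and Mrps33, which is 4 of the 13 such genes in liver and 4 of the 11 in adipose tissue. These 4 of 33 stand against 2.75% of the 10950 probes. The shares apart and lower in single tissues were already larger for the class, at 39.4% in liver and 33.3% in adipose tissue. Those of all probes were 14.8% and 10.8%. A shared count of this size can follow from the class shares alone, so it shows no agreement beyond them. Mrpl4 and Mrpl50, which were named after their values were seen, differed by -0.24 and -0.30 in liver and by -0.35 and -0.30 in adipose tissue. None of the 4 passed in adipose tissue.

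Among cytosolic genes 2 of 67 were called in liver, against 4.69% of all probes, and 0 of 69 in MEFs and 0 of 68 in adipose tissue, against 0.448% and 0.407%. At an unadjusted p under 0.05 there were 6 in MEFs and 7 in adipose tissue, against 10.7% and 13.2% of all probes, and with limma's trended robust variance 2 and 1 were called. Groups were apart for 11 genes in liver (6 higher and 5 lower in KO), for 6 in MEFs (1 and 5) and for 8 in adipose tissue (5 and 3), against 27.9%, 16.9% and 19.6% of all probes.

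Rps2, a small-subunit protein near the channel by which the message enters, was the only member of either class whose groups were apart and lower in KO in all 3 tissues. How many of all probes had that pattern was not counted. Its raw signals were 8245.9, 7940.8 and 7427.0 in KO against 12746.0, 10828.9 and 13780.0 in WT livers. They were 15091.9, 13686.7 and 11362.1 in KO against 16790.4, 31956.3 and 25035.9 in WT adipose tissue, and 17360.5, 20395.2 and 16899.2 in KO against 27308.6, 30250.1 and 28140.7 in WT MEFs. Rps2 fell by 0.61 ± 0.08 in KO liver, a 1.53-fold lower level, with limma's adjusted p = 0.0209. It did not pass without KO replicate 2 or 3 or WT replicate 1 or 3 (0.0539 to 0.0928), nor with the slide as a block (0.0542). In adipose tissue the difference was -0.89 ± 0.13 and in MEFs -0.56 ± 0.10, with limma's adjusted p of 0.0868 and 0.125. The probe held the same rank on all 3 WT MEF arrays, so quantile normalization gave them 1 value and no spread. Cytosolic ribosomal protein genes have many processed pseudogenes, the probe sequences were not used here, and transcripts of near copies of Rps2 cannot be told apart from its own.

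The other call was Rpl7l1, a relative of Rpl7. Its raw signals were 380.1, 338.4 and 343.9 in KO and 437.6, 428.2 and 474.4 in WT livers. It fell by 0.59 ± 0.06, a 1.5-fold lower level after normalization, with limma's adjusted p = 0.0143. A second Rpl7l1 probe differed by 0.07 in liver, so the call rests on 1 of 2 probes. It did not pass without WT replicate 2 or 3 (limma's adjusted p of 0.0595 to 0.0725), and the same probe differed by -0.21 in MEFs and -0.22 in adipose tissue. Rps29 (0.33 ± 0.09), Rpl39 at the exit tunnel (0.31 ± 0.06), the X-linked Rps4x (0.21 ± 0.10) and Rps25 (0.20 ± 0.07) had groups apart and higher in KO liver, and Rpl6 (-0.21 ± 0.07) and the pseudogene Rps4l (-0.19 ± 0.05) lower. Limma's adjusted p was 0.0538 for Rpl39 and 0.0934 to 0.274 for the others. Median centring brought Rps29 to 0.19, Rpl39 to 0.19, Rps4x to 0.13 and Rps25 to 0.12, and Rps4x was 0.11 without KO replicate 1. The dim Rps4l probe differed by -0.34 to -0.81 under other background corrections and by -1.46 in the authors' values (limma's adjusted p = 0.0855), and passed only with trended robust variance (0.0493).

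In MEFs the largest cytosolic difference was that of Rpl29, at -0.71 ± 0.13 (limma's adjusted p = 0.124), with 1162.2, 1150.5 and 1136.1 in KO against 1903.9, 1652.2 and 1919.2 raw units in WT. The 3 KO arrays lay below every WT array. In adipose tissue Rpl29, named here after its values were seen, had 222.9, 195.6 and 1053.7 in KO against 928.8, 1545.4 and 1372.3 in WT, a difference of -1.13 ± 0.47 with overlapping groups. Rps24 (-0.33 ± 0.10) and Rpl19 (-0.18 ± 0.05) were also apart and lower in KO MEFs, and Rps27l, a relative of Rps27 that p53 induces, was apart and higher (0.19 ± 0.07, and 0.12 with median centring). None of the 3 passed. In adipose tissue Rps19, mutated in human Diamond-Blackfan anaemia, differed by -0.80 ± 0.29 and Rps4l by -0.18, while Rps14 (0.26), Rpl3 (0.25), Rpl34 (0.24) and Rps9 (0.24) were apart on the higher side, and none passed. With median centring Rpl3 was 0.16 and Rps9 0.16, Rps14 was 0.16 without KO replicate 2, and Rps4l ranged from -0.11 without WT replicate 4 to -0.41 in the authors' values.

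Genes with 2 tested probes gave a check on the size of such differences. The probes disagreed in sign for 5 of 9 genes in MEFs, 2 of 6 in liver and 1 of 7 in adipose tissue. In MEFs these were Rps9 (-0.03 and 0.14), Rps3 (-0.05 and 0.10), Rpl23 (-0.07 and 0.01), Rpl38 (-0.03 and 0.05) and Mrpl51 (-0.03 and 0.01). Beside Rpl7l1, Rpl27a disagreed in liver (-0.32 and 0.01) and in adipose tissue (-0.13 and 0.08). The 2 probes of Mrpl1, the mitochondrial gene with 2 tested probes in every tissue, shared their sign throughout, at -0.36 and -0.13 in liver and 0.32 and 0.004 in adipose tissue, the 0.32 being 0.19 without KO replicate 5.

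Promoters of the 7 called members are shown with the TOP tract, described above for cytosolic messages, and the ETS core marked. One or the other lay at the start site in 5 of the 7, an ETS core in Mrps12 and Mrpl33 and a TOP tract in Rps2, Mrpl17 and Mrps33. The share of all genes with either at the start site was not counted, so the 5 do not set the called members apart. RefSeq windows of 300 bases (GRCm38.p6, 250 before to 50 after the start) matched 54 of 72 cytosolic and 33 of 35 mitochondrial genes. A TOP tract, here a C within 5 bases of the start followed by at least 4 C or T on the gene's strand, was found in 48.1% of cytosolic, 18.2% of mitochondrial and 21.2% of all 27025 genes with a window. The ETS core CCGGAAG, on either strand, was found in 42.6% of cytosolic and 42.4% of mitochondrial genes against 9.93% of all genes. The letters TATAAA, on either strand, were found in 9.26% of cytosolic, 6.06% of mitochondrial and 15.7% of all genes. The TOP tract can overlap the reverse complement of the ETS core. A match describes these letters and not a bound site. Each line gives the 80 bases before and 20 bases from the start. Capitals mark the first TOP tract and any match of the other motifs that lies wholly within the line. A tract is marked from the first C within reach of the start, so pyrimidines before it and later tracts, as in Mrps33, stay in lower case.
Mrps12 (chr7:28741802-28741901, minus strand): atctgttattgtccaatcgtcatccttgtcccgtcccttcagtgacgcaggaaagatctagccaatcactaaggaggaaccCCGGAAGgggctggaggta
Mrpl33 (chr5:31613871-31613970, plus strand): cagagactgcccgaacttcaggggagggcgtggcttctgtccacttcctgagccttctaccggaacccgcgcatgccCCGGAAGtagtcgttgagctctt
Mrpl17 (chr7:105811068-105811167, minus strand): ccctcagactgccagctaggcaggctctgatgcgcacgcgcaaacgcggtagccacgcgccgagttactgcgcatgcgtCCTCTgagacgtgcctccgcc
Mrps33 (chr6:39810917-39811016, minus strand): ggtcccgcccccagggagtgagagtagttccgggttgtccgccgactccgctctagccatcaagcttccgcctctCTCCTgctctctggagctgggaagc
Mrpl20 (chr4:155802798-155802897, plus strand): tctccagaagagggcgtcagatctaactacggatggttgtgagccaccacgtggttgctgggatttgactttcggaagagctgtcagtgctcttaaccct
Rps2 (chr17:24719983-24720082, plus strand): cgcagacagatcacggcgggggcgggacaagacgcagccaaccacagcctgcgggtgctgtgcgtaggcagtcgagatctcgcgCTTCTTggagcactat
Rpl7l1 (chr17:46782637-46782736, minus strand): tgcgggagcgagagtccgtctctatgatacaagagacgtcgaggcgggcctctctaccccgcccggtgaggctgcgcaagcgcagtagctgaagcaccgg

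The printed Mrps12 and Mrpl33 windows held an ETS core at the start, and those of Rps2, Mrpl17 and Mrps33 a TOP tract, while those of Rpl7l1 and Mrpl20 held none of these motifs. Among mitochondrial genes the liver median difference was -0.34 for 6 genes with a TOP tract and -0.18 for 25 without, and in adipose tissue it was -0.39 and -0.18. In MEFs it was -0.08 and -0.11. For 14 mitochondrial genes with an ETS core and 17 without, the medians were -0.18 and -0.25 in liver and -0.23 and -0.18 in adipose tissue. For cytosolic genes with and without a TOP tract the medians were -0.06 and -0.04 in liver, 0.04 and 0.09 in adipose tissue, and -0.02 and -0.04 in MEFs. These are descriptions with no test.

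Genes that build or serve the ribosomes were read from further lists, whose counts of calls are to be set against 4.69% of all probes in liver, 0.407% in adipose tissue and 0.448% in MEFs. Of 17 tested genes of mitochondrial translation and mitoribosome assembly, 16 were below 0 in KO liver (median -0.14), 17 in adipose tissue (median -0.17) and 13 in MEFs (median -0.03), and 2 of 17 were called in liver. In liver Pdf, which removes the formyl group from new mitochondrial chains, had 333.5, 328.6 and 351.2 in KO and 401.4, 429.1 and 435.5 raw units in WT, and fell by 0.55 ± 0.07 with limma's adjusted p = 0.0189. Iars2, the mitochondrial isoleucyl-tRNA synthetase, fell by 0.50 ± 0.09 with limma's adjusted p = 0.0452. Pdf did not pass without KO replicate 2 or WT replicate 2 or 3 (0.0540 to 0.0853), nor Iars2 without KO replicate 1 or 2 or WT replicate 1, 2 or 3 (0.0530 to 0.149) or with the slide as a block (0.0974). No gene of this list passed in adipose tissue or MEFs. Messages encoded by mitochondrial DNA, a list added after seeing the data, had the other sign in liver, with 12 of 13 above 0 and a median of 0.29, and 0 called. They were above 0 for 4 of 12 in adipose tissue and 6 of 12 in MEFs.

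On the cytosolic side, ribosome biogenesis genes were below 0 for 21 of 28 in liver, 18 of 27 in adipose tissue and 25 of 30 in MEFs, with medians of -0.06, -0.02 and -0.12. Only Nifk, a nucleolar protein that binds Ki-67, passed. It fell by 0.35 ± 0.05 in liver with limma's adjusted p = 0.0239, and did not pass without KO replicate 2 or 3 or WT replicate 2 or 3 (0.0670 to 0.104). With median centring it was -0.24 (0.106). Among 24 tested initiation and elongation factors in liver, Eif2s2, the beta subunit of the initiation factor that carries the first tRNA, had 554.8, 456.2 and 530.6 in KO and 764.1, 768.5 and 870.2 raw units in WT. It fell by 1.00 ± 0.12 there (limma's adjusted p = 0.0171) and by 0.89 ± 0.08 in MEFs (limma's adjusted p = 0.0250), and differed by -0.87 ± 0.15 in adipose tissue (limma's adjusted p = 0.121). Groups were apart in all 3 tissues, and the share of all probes with that pattern was not counted. The liver call did not pass without WT replicate 2 or 3 (0.0645 to 0.0823). The MEF call did not pass with the replicate block (0.110), nor without KO replicate 2 or 3 or WT replicate 1, 2 or 3 (0.0718 to 0.144). Eif5 was the other call among initiation and elongation factors, at -0.48 ± 0.06 in liver (limma's adjusted p = 0.0208, and 0.0627 to 0.0738 without KO replicate 2 or 3 or WT replicate 2 or 3). Of 6 tested Myc and mTOR regulators, Rictor, the defining subunit of mTOR complex 2, rose by 0.66 ± 0.09 in KO liver (limma's adjusted p = 0.0209, and 0.0678 to 0.0864 without KO replicate 2 or 3 or WT replicate 2 or 3). Ppargc1b, a coactivator of mitochondrial genes, rose by 0.28 ± 0.04 there (limma's adjusted p = 0.0336, and 0.0824 to 0.111 without KO replicate 2 or 3 or WT replicate 1, 2 or 3, 0.0786 with the slide as a block and 0.0539 with the stricter filter). Its difference was 0.57 with background from median and MAD and 0.78 in the authors' values. Ribosome parts outside the naming rule had 0 of 4 called in liver (against 4.69% of all probes), 0 of 4 in adipose tissue (0.407%) and 0 of 5 in MEFs (0.448%). The 3 tested probes for 18S ribosomal RNA, a list added after seeing the data, were all above 0 in adipose tissue (median 0.46, 1 apart and higher in KO) and all below 0 in MEFs (median -0.27, 1 apart and lower), with a median of 0.16 in liver and 0 called in any tissue. Their part in the class values was not tested.

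WT levels of the cytosolic genes were compared between tissues after normalizing all arrays together, and the order depends on that step. On that scale 65 of 66 cytosolic genes were higher in WT MEFs than in WT liver, by a median of 1.09, and 66 of 66 were higher than in WT adipose tissue, by a median of 1.20. On the raw scale the median over cytosolic genes of the mean signal of a tissue's 6 arrays was higher in adipose tissue (14294) than in MEFs (12198) and liver (6046). The mitochondrial genes had no common order after normalization. Of 33, the highest level was that of MEFs for 13, of liver for 12 and of adipose tissue for 8, and the median difference of MEFs from liver was -0.10. Mrps6 varied most among them, at 11.85 ± 0.15 in WT MEFs, 8.92 ± 0.07 in WT liver and 11.72 ± 0.33 in WT adipose tissue (log2, SD, n = 3), where MEFs and adipose tissue differed by less than the spread in adipose tissue. Rpl13a varied most among the cytosolic genes, at 12.37 ± 0.04, 10.31 ± 0.16 and 9.22 ± 0.24 in these tissues. Tissues lay on different slides and differed in hours without food, so tissue, slide and fasting cannot be told apart, and these levels carry no test.

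**Figure D5:**
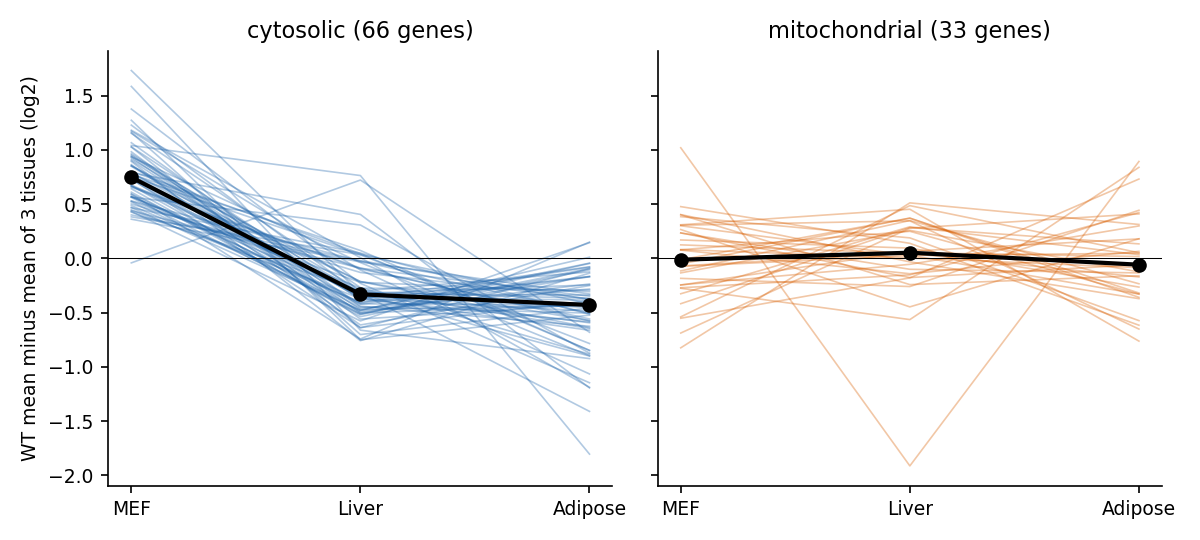
Each line is a gene's WT mean in a tissue minus its mean over the 3 tissues (log2, vertical axis), with class medians in black. Cytosolic genes are highest in MEFs for 65 of 66 genes, and mitochondrial genes have no common order, the line that dips most in liver being Mrps6.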

How the data were processed

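Total RNA of 18 samples was hybridised to Illumina Mouse-6 V1 bead arrays, read with 1 colour. The bead signal intensities and the detection p-value of each probe come from BeadStudio 1.5.1.3, per the file headers, as deposited and without normalization. Per the submitters' processing notes, the tools were lumi, affy, limma and RMA, with no order given. The authors' deposited normalized intensities, taken to log2 here, were used as an alternative only. Raw files pair probes with no gene, so genes were read from the NCBI gene ID inside the probe name. Of 14150 such numbers 57.3% matched a mouse gene ID, against 28.9% to 32.5% after shifting them, and 25 member probes with names of another form, whose numbers matched no better than shifted ones, were left out. Names and chromosomes came from RefSeq (GRCm38.p6).

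Signals were background corrected and quantile normalized within the 6 arrays of a tissue with neqc in limma 3.58.1 (R 4.3.3), which reads the background from the detection p-values, adds an offset of 16 and takes log2. The 62 control probes were left out. The inferred background SD (112 to 507) exceeded its robust estimate (11.7 to 23.0), which compresses differences of dim probes. KO and WT were compared with lmFit and eBayes in each tissue, with Benjamini-Hochberg adjustment over all tested probes, and effects between tissues in a fit over 18 arrays. The number of arrays limits the precision. The script was tested on simulated data. Deviations of same-numbered MEF arrays had correlations of 0.101, 0.227 and 0.238, against -0.254 to 0.126 for other pairs. The replicate block is therefore given beside MEF calls it ends, and its effect on liver calls stands in the closing section. Members and lists were chosen with earlier results of these data known. Genes were named if called, if among the largest changes with groups apart, or if their effect differed between tissues. The NRF1 and YY1 motifs were also searched and matched at most 2 promoters of a class. Alternatives were other background corrections, normalizations, filters and variance models, blocks by slide or replicate, and each array left out.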

Additional observations from a re-analysis of the deposited data

Results flagged for a closer look

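The KO effect differed between tissues, by limma's test of the difference over 18 arrays, for 3 ribosomal protein genes. For Mrpl33 the effect in adipose tissue minus that in MEFs was 0.93 and the effect in liver minus that in MEFs was 0.89 (log2). For Mrpl1 the effect in liver minus that in adipose tissue was -0.67, and for Rpl34 it was -0.52. Leaving out any single array kept both Mrpl33 values past the threshold, and ended the calls of Mrpl1 and Rpl34 in 10 and 8 of 18 fits. Processing alternatives ended both of those calls in 4 of 5 cases, and a second Mrpl1 probe gave -0.13 (limma's adjusted p = 0.796). Tissues lay on different slides, so tissue and slide cannot be told apart.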

How the results depend on the processing

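No named gene changed sign in any alternative run on it. The mitochondrial median stayed below 0 in every alternative, at -0.14 to -0.06 in MEFs, -0.23 to -0.16 in liver and -0.26 to -0.14 in adipose tissue with single arrays left out, and at -0.13 to -0.08, -0.25 to -0.15 and -0.26 to -0.18 in the others. The liver value of -0.15, with median centring, stood beside a median of -0.057 over all tested probes in that setting. The cytosolic median had no stable sign in liver and adipose tissue, and values of named genes that moved by over 1.5 times stand beside them above. Counts of calls depended on the settings, and the cause was not tested. Probes called in MEFs (63) were 249 without background correction, 165 with background from median and MAD, 289 with normexp without controls, 36 without the filter, 238 with trended robust variance and 9 with the replicate block. In liver (590) they were 372 with the authors' values, 357 without the filter, 259 with the replicate block and 292 with the slide block. In adipose tissue (65) they were 272, 206 and 283 with those background corrections, 160 with the authors' values, 30 without the filter, 105 with the stricter filter, 251 with trended variance and 31 with the slide section block. The cytosolic count in MEFs (0) was 2 without background correction, with normexp and with trended variance, and 1 with median centring, which moved the cytosolic median to -0.079. In liver (2) it was 0 with MAD and with the authors' values, and 1 with either block. In adipose tissue (0) it was 1 with no correction, normexp, median centring or trended variance. The mitochondrial count in MEFs (1) was 0 with median centring, the authors' values, no filter or the replicate block, and 2 with 18 arrays normalized together. In liver (3) it was 1 with normexp or trended variance and 0 with MAD, median centring, the authors' values, no filter or the replicate block. In adipose tissue (1) it was 0 with each of the 3 background corrections, median centring, the authors' values, no filter, the stricter filter, trended variance and the slide section block. Members differing between adipose tissue and MEFs (1) were 2 with median centring or trended variance, and between liver and adipose tissue (2) were 0 with no correction, MAD, median centring or trended variance. With single arrays left out the calls ranged from 17 to 62, 58 to 1052 and 17 to 96 over all probes in MEFs, liver and adipose tissue, from 0 to 1, 0 to 6 and 0 to 1 for cytosolic and from 0 to 1, 0 to 4 and 0 to 0 for mitochondrial genes. Members differing between tissues ranged from 1 to 3 (liver and MEFs), 1 to 6 (adipose tissue and MEFs) and 0 to 3 (liver and adipose tissue). In liver the correlations of same-numbered arrays were 0.227, 0.234 and -0.103, against -0.296 to 0.161 for other pairs. With the replicate block Rps2 stayed called in liver (limma's adjusted p = 0.0429). No other liver call named above passed with that block (limma's adjusted p of 0.0506 to 0.0988). No paired analysis was possible in adipose tissue because its groups share fewer than 2 numbers.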
